A study of Mus musculus with 4 samples.

Results

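The prostaglandin genes described here are 9 members of 32285 listed genes, chosen by symbol and not by any value: the cyclooxygenases Ptgs1 and Ptgs2, the terminal synthases Ptges, Ptges3, Hpgds and Tbxas1, the inactivating dehydrogenase Hpgd, and the receptors Ptger2 and Ptger4. All 9 were found in the files. They were followed in CD45-selected cells of CT26 tumours, a colon carcinoma line grown in Balb/c mice 9 weeks old, from control mice (2 libraries) and from mice given liproxstatin-1 for 8 days (2 libraries). Liproxstatin-1 inhibits ferroptosis, a cell death driven by iron and oxidised membrane lipids. What the control mice received is not given in the sources used here. Nothing in the labels says that the libraries of a group came from separate animals, so p-values measure only the spread between libraries, which may be technical.

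Prostaglandins are made from arachidonic acid, which phospholipases free from membranes. The cyclooxygenases turn it into prostaglandin H2, and a terminal synthase then decides the product: Ptges makes prostaglandin E2, Hpgds makes prostaglandin D2 and Tbxas1 makes thromboxane A2. Hpgd oxidises prostaglandins and ends their action, and Ptger2 and Ptger4 are the prostaglandin E2 receptors that raise cyclic AMP. In tumours prostaglandin E2 is known for restraining T cells, NK cells and dendritic cells. Whether a lipid was made cannot be read from these RNA counts.

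The libraries held 4138 to 9299 barcodes and 83129874 to 168597163 UMIs, unique molecular identifiers that each stand for 1 captured transcript. After filters 25730 cells were kept, and Ptprc, the gene of CD45, had a UMI in 81.9% to 93.5% of the cells of a library. Cells were sorted into classes by marker genes among which no prostaglandin gene was used, and tests were run in the 12 immune classes of which each library held 20 or more cells. Control replicate 1 was the smallest library, with 3753 kept cells and 95 neutrophils, where the other libraries had 379 to 579 neutrophils. Libraries shared 3 to 19 barcodes in pairs. CPM stands for UMIs after scaling each class of each library to one common total, and values are given in the order control replicates 1 and 2, liproxstatin replicates 1 and 2. In summed cells, fewer cells with a transcript and fewer transcripts per cell cannot be told apart.

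The 250 bases before the start of Ptgs1 and Ptgs2 are printed because the 2 enzymes catalyse the same step and differed in the leukocytes with the highest mean level. These were macrophages for Ptgs1, at 24.5 CPM, and neutrophils for Ptgs2, at 2560 CPM. By share of UMIs macrophages, 49.0% of the kept cells, were the largest holder of both, with 88.1% for Ptgs1 and 37.9% for Ptgs2. Classes differ in UMIs per cell, so a share of cells is no measure for a share of UMIs. Of Ptges3, the member spread over all classes, macrophages held 69.6%. The sequences are RefSeq's on GRCm38.p6, at chr2:36230176-36230425 and chr1:150099781-150100030, both on the plus strand and read 5′ to 3′. Capitals mark matches to 5 motifs searched on both strands and chosen after the sequences had been seen: the TATA box TATAAA, the cyclic AMP response core TGACGT, the E-box CACGTG, the C/EBP palindrome TTGCGCAA and the PU.1 site GAGGAAGT.
Ptgs1: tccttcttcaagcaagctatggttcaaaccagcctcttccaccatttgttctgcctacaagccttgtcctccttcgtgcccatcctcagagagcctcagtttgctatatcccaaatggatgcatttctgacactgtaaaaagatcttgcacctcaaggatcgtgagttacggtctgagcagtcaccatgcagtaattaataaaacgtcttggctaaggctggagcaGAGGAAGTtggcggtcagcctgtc
Ptgs2: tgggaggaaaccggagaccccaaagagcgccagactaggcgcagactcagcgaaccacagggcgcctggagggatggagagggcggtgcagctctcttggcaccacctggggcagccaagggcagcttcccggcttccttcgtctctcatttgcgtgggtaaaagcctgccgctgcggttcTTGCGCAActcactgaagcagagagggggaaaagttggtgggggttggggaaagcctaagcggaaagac
The capitals in Ptgs1 are GAGGAAGT, letters bound by PU.1, 24 bases before the start, and 2.44% of 32851 promoters of this length held them on either strand. The capitals in Ptgs2 are TTGCGCAA, a palindrome bound by C/EBP factors, 69 bases before the start, held by 0.164% of promoters. Neither window held the TATA box, the cyclic AMP response core or the E-box, which 12.4%, 6.47% and 6.02% of promoters held. Bases past the annotated start and further upstream were not searched, so the absence holds for these windows only. A match is a description of letters and not a site shown to be used.

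Ptgs2, the inducible cyclooxygenase (ENSMUSG00000032487, chromosome 1, 150100031 to 150108227, plus strand, GRCm38), was highest in neutrophils. Its level there was 3406, 2126, 2568 and 2141 CPM, a mean of 2560 ± 600 (SD over 4 libraries). Monocytes followed with 577, 317, 716 and 519 CPM, so the lowest neutrophil library stood above the highest monocyte library, and the means differed 4.81-fold. With classes taken from clusters, where the cluster led by Hp, Ace and Chil3 stands for monocytes and one led by Inhba, Cxcl3 and F10 belongs to no class, the monocyte mean was 193 CPM. Type 2 conventional dendritic cells (398, 26.2, 328 and 206 CPM) and macrophages (90.9, 17.7, 112 and 87.2 CPM) came next, and their ranges overlapped with those of their neighbours in the order. Type 1 conventional dendritic cells were uneven, at 36.6, 0, 11.9 and 1.51 CPM. In CD8 T cells Ptgs2 was 1.78 to 3.35 CPM, where free RNA estimated from the macrophage genes C1qa, C1qb and C1qc would give 1.44 to 3.41 CPM.

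The neutrophil level was not carried by a few cells. A Ptgs2 UMI was found in 81.0% of 1482 neutrophils (95% Wilson interval 79.0 to 83.0), although their median depth was only 3322 UMIs. The share was 60.6% in monocytes (median 13295 UMIs), 28.5% in macrophages (26374 UMIs) and 2.70% in CD8 T cells (12438 UMIs). With every cell thinned to 2000 UMIs the shares were 78.6%, 38.3%, 9.84% and 0.458%, which left out 168 neutrophils, 12 monocytes, 844 macrophages and 23 CD8 T cells. The tenth of macrophages with most Ptgs2 held 81.4% of the Ptgs2 UMIs of that class, against 38.9% in neutrophils. Intervals cover counting error only.

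**Figure D1:**
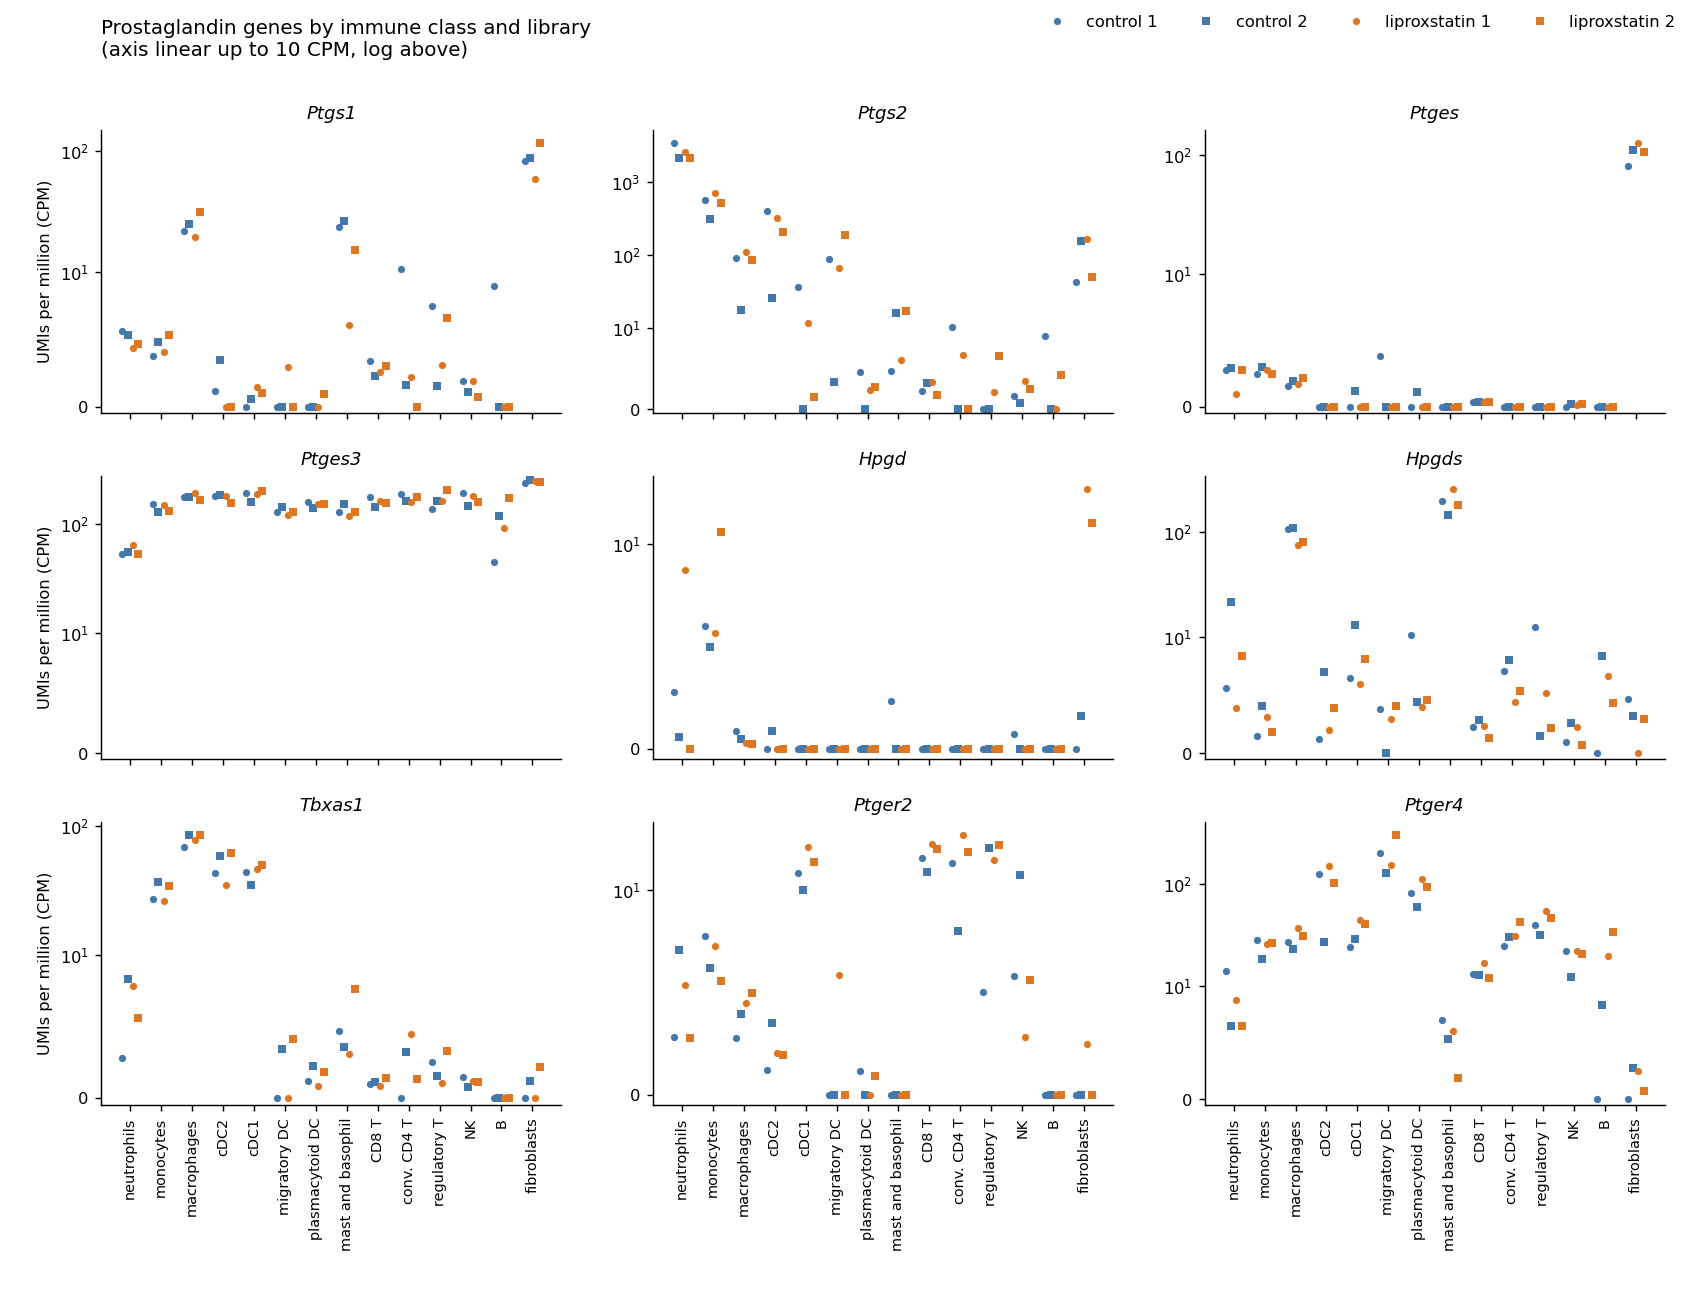
Level of each of the 9 genes in CPM (vertical axis, linear up to 10 and logarithmic above) in 12 tested classes and in the less numerous migratory dendritic cells and fibroblasts, 1 point per library, blue for control and orange for liproxstatin, circles for replicate 1 and squares for replicate 2. Ptgs2 is highest in neutrophils, at 2126 to 3406 CPM, Hpgds in mast cells and basophils and in macrophages, Ptges in fibroblasts, and Ptges3 is spread over all classes.

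Neutrophils, the class with the highest Ptgs2 level, did not hold most of its transcripts. They were fewer than macrophages (1482 against 12617 cells) and had far fewer UMIs per cell, by the medians given above. Macrophages held 37.9% ± 13.1 (SD, n = 4) of the Ptgs2 UMIs of a library, monocytes 23.0% ± 1.11, neutrophils 20.3% ± 12.1 and cells between the monocyte and macrophage gates 9.07% ± 2.37. The neutrophil share was 37.7% in control replicate 2 and 11.7%, 19.1% and 12.8% in the other libraries, while the macrophage share was 18.8% in control replicate 2 and 39.7% to 46.9% in the others. Fibroblasts held 4.06% in control replicate 2 and at most 0.48% elsewhere.

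Ptgs1, the constitutive cyclooxygenase (ENSMUSG00000047250, chromosome 2, 36230426 to 36252272, plus strand), had its highest immune levels in macrophages, at 24.5 ± 5.21 CPM (SD, n = 4), and in mast cells and basophils, at 17.8 ± 9.20. Their ranges overlapped and the order differed between groups: mast cells and basophils had 23.4 and 26.6 CPM in control and 6.06 and 15.1 CPM in liproxstatin libraries, macrophages 21.8, 25.2, 19.7 and 31.6 CPM. In mast cells and basophils the log2 fold change was -1.001 ± 0.56 (adjusted p = 0.70, edgeR). Neutrophils were below both, at 4.99 ± 0.57 CPM. Macrophages held 88.1% ± 2.27 of all Ptgs1 UMIs. In neutrophils the Ptgs1 level was 4.37 to 5.61 CPM in libraries whose Ptgs2 level was 2126 to 3406 CPM. These are 3' UMI counts, which do not scale with transcript length.

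Ptges, the inducible prostaglandin E2 synthase (ENSMUSG00000050737, chromosome 2, 30889471 to 30929863, minus strand), was scarce in the leukocytes. It reached 2.69 ± 0.26 CPM in monocytes, 2.38 ± 0.94 in neutrophils and 1.85 ± 0.25 in macrophages. No UMI was seen in B cells, conventional CD4 T cells, regulatory T cells, type 2 conventional dendritic cells or mast cells and basophils. At a median of 5340 UMIs, 0 of 401 regulatory T cells had a Ptges UMI, an upper 95% Wilson limit of 0.949% on cells with a UMI, which does not limit the share of cells expressing the gene. By contrast the 128 cells that fell into the fibroblast gate had 79.9, 110, 125 and 106 CPM of Ptges, and 81.3% of them had a UMI. The cluster named fibroblasts by the same markers had a median of 47718 UMIs. The share of 81.3% is thus from far deeper cells than that of regulatory T cells. Of the Ptges UMIs of a library, macrophages held 40.9% ± 8.14 and ungated cells 17.4% ± 6.62. The 128 fibroblast-gated cells held 29.3% ± 9.63, although the libraries had only 12, 56, 17 and 43 such cells. In control replicate 2 macrophages held 31.1% and these cells 42.6%. The same cells had 82.2, 87.4, 58.7 and 116 CPM of Ptgs1 and 42.3, 155, 165 and 50.9 CPM of Ptgs2. They were too few in control replicate 1 and liproxstatin replicate 1 to be tested.

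Hpgds, the haematopoietic prostaglandin D2 synthase (ENSMUSG00000029919, chromosome 6, 65117293 to 65144908, minus strand), was highest in mast cells and basophils and in macrophages. Mast cells and basophils had 194, 145.5, 254.5 and 178 CPM, and macrophages 107, 108, 74.99 and 79.4 CPM. Both classes were separated from the next by their ranges, since neutrophils were at 9.78 ± 7.87 and monocytes at 2.63 ± 1.18 CPM. Macrophages held 96.8% ± 0.35 of all Hpgds UMIs, beside 69.6% ± 2.30 of those of Ptges3, which was spread over all classes. Free RNA would give neutrophils 2.33 to 4.65 CPM of Hpgds, where 3.89 to 21.3 CPM were measured.

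Tbxas1, the thromboxane A2 synthase (ENSMUSG00000029925, chromosome 6, 38875404 to 39084585, plus strand), followed the mononuclear phagocytes and conventional dendritic cells. Macrophages had 78.8 ± 7.71 CPM, type 2 and type 1 conventional dendritic cells 49.1 ± 12.4 and 43.6 ± 6.44, and monocytes 30.8 ± 5.09 (18.9 with classes taken from clusters). Neutrophils were lower at 6.11 ± 2.49 CPM, as were plasmacytoid (1.49 ± 0.63) and migratory (1.87 ± 2.18) dendritic cells. The range of macrophages lay above that of type 2 conventional dendritic cells. The 2 conventional dendritic cell types overlapped with each other, and type 1 cells overlapped with monocytes.

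Ptges3 (ENSMUSG00000071072, chromosome 10, 128058954 to 128077272, plus strand) is best known as a co-chaperone and only secondarily as a prostaglandin E synthase. In the 12 tested classes it averaged 109 to 186 CPM, apart from neutrophils, which had 56.6 ± 5.21 CPM, and in fibroblasts it averaged 250.1 CPM. Its level in neutrophils overlapped with the uneven values of B cells (44.9 to 176 CPM).

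Hpgd, which inactivates prostaglandins (ENSMUSG00000031613, chromosome 8, 56294585 to 56321043, plus strand), was rare. Monocytes had 7.05 ± 3.05 CPM and macrophages 0.49 ± 0.29. Neutrophils averaged 3.04 ± 3.99 CPM, but only 3 of 1482 neutrophils held a UMI. In 6 of the 12 classes no UMI was seen, CD8 T cells among them, where 0 of 3078 cells leave an upper limit of 0.125% on cells with a UMI, not on cells expressing the gene. Within the mononuclear phagocytes 1 cluster stood apart, led by Hp, Ace, Chil3, Adgre4 and Napsa. Ace and Adgre4 are known from patrolling monocytes, while Hp and Chil3 are general monocyte markers of the gate used here. The 843 cells of this cluster had 18.5, 16.9, 14.0 and 27.2 CPM of Hpgd, and no other phagocyte cluster averaged above 1.19 CPM. Which type of monocyte in the cluster held Hpgd was not tested. The 9 genes took no part in the clustering.

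The 2 receptors differed in the classes with the highest level. By share of UMIs macrophages were the largest holder of both, with 70.7% ± 3.70 for Ptger4 and 49.3% ± 3.55 for Ptger2. Ptger4 (ENSMUSG00000039942, chromosome 15, 5206661 to 5244187, minus strand) was highest in dendritic cells: 126, 27.1, 152 and 103 CPM in type 2 conventional, 82.0, 59.2, 113 and 94.1 CPM in plasmacytoid, and 203, 129, 155 and 306 CPM in the 99 migratory dendritic cells, which were too few to test. Regulatory T cells (43.3 ± 9.75 CPM), type 1 conventional dendritic cells (34.6 ± 9.68), conventional CD4 T cells (32.3 ± 7.73), macrophages (29.8 ± 6.15) and monocytes (24.7 ± 4.33, and 50.7 with classes taken from clusters) formed a run of overlapping ranges below the plasmacytoid dendritic cells. Ptger2 (ENSMUSG00000037759, chromosome 14, 44988195 to 45003820, plus strand) had its highest levels in T cells and type 1 conventional dendritic cells. CD8 T cells had 15.4 ± 2.30 CPM, conventional CD4 T cells 14.5 ± 4.99, regulatory T cells 13.5 ± 5.80 and type 1 conventional dendritic cells 13.4 ± 2.98, and these 4 classes overlapped. Plasmacytoid dendritic cells, which had 87.0 ± 22.4 CPM of Ptger4, had 0.52 ± 0.61 of Ptger2. CD8 T cells had 13.8 ± 2.23 CPM of Ptger4, close to their Ptger2 level.

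**Figure D2:**
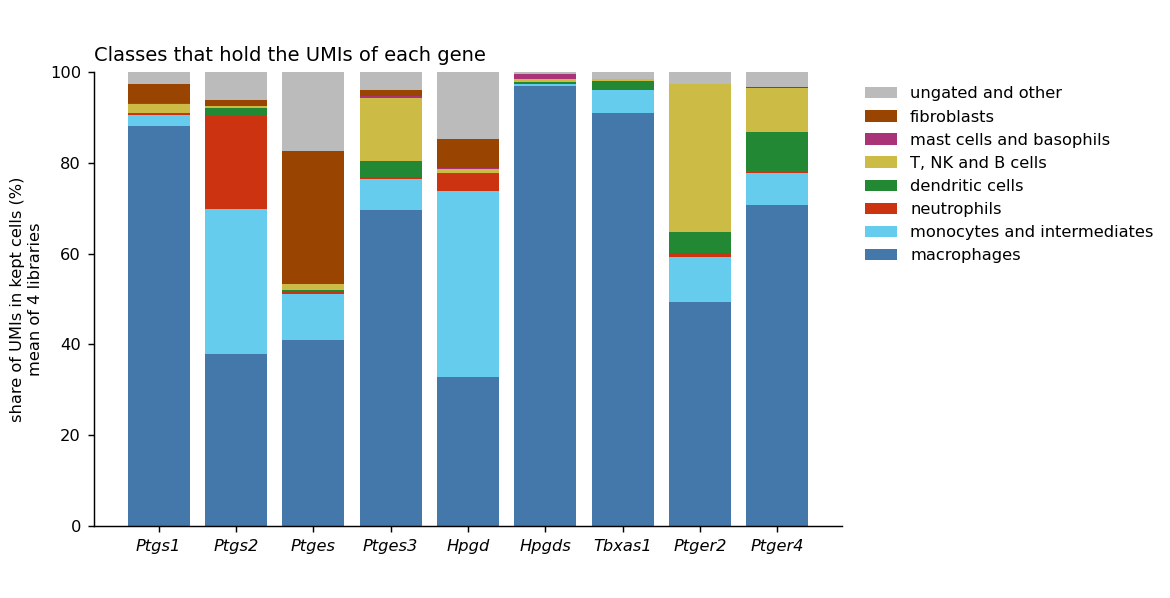
Share of the UMIs of each gene, in percent of the UMIs in all kept cells of a library, held by groups of classes, as the mean of 4 libraries, with dendritic cells and lymphocytes pooled. Macrophages hold 96.8% of the Hpgds, 88.1% of the Ptgs1, 69.6% of the Ptges3 and 40.9% of the Ptges UMIs. Neutrophils hold 20.3% of the Ptgs2 UMIs and fibroblasts 29.3% of the Ptges UMIs.

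By likeness over the 48 sums of 12 classes in 4 libraries, the genes whose log2(CPM + 1) followed Ptgs2 most closely were Cxcl2 (Pearson r = 0.95), Slc7a11 (0.93) and Il1b (0.93), among 10315 genes with at least 10 CPM in a class. Cxcl2 is a chemokine for neutrophils, Slc7a11 the cystine transporter and Il1b an inflammatory cytokine. Hpgds was followed by Pmp22 (0.89), Cd63 (0.86) and Slco2b1 (0.85), Ptgs1 by Cx3cr1 (0.79), Slc6a8 (0.79) and Syngr1 (0.78), and Tbxas1 by Batf2 (0.94), Myof (0.93) and Cxcl16 (0.93). Ptger2 was followed by Prkch (0.84), Socs1 (0.82) and Rgs3 (0.81), Ptger4 by Ly6a (0.80), Arhgap5 (0.80) and H13 (0.79), Hpgd by Arhgef37 (0.86), Serpinb2 (0.82) and Rhou (0.81), Ptges by Lilra5 (0.87), Abcd2 (0.87) and Slc11a1 (0.87), and Ptges3 by Ppa1 (0.91), Eef1akmt1 (0.90) and Cetn3 (0.90). The sums of 1 library share its depth and handling, and those of 1 class its cell type, so these values describe a pattern over classes and carry no test.

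The mononuclear phagocytes, which hold most of the transcripts, were uneven in these genes. Among 11 clusters with at least 100 cells, Ptgs2 was highest in the cluster led by Inhba, Cxcl3, F10, Vcan and Slpi (2465 cells), at 661, 300, 767 and 539 CPM. The same cluster had 9.26, 8.67, 6.88 and 4.72 CPM of Hpgds. The cluster led by Lyve1, Ednrb and Cd163 (1391 cells) had the highest mean of Hpgds and little Ptgs2, with 160, 148, 125 and 141 CPM of Hpgds and 39.9, 10.7, 32.0 and 33.5 CPM of Ptgs2. A cluster led by Cd83, Il1a and Pmepa1 (1882 cells) had both, with 84.8 CPM of Hpgds and 154 CPM of Ptgs2 on average, and the highest mean of Ptgs1, 34.7 CPM. Lyve1 and Cd163 are known from resident tissue macrophages and Vcan from monocytes. Tbxas1 varied less, from 19.5 CPM in the Hp and Ace cluster to 106 CPM in the Lyve1 cluster.

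With liproxstatin, 1 of the 57 tested pairs of a gene and a class passed the test at an adjusted p under 0.05: Hpgds in macrophages. The test was edgeR's quasi-likelihood test on summed UMIs, with n = 2 libraries per group and Benjamini-Hochberg adjustment over all genes of the class. On simulated counts with 2-fold changes, 16.2% of its macrophage calls were unchanged genes, and in neutrophils it recovered 29.3% of the changed genes. Of the 108 possible pairs, 51 did not pass the filter on low counts. Among the 9 genes in macrophages, 0 were called higher and 1 lower, where 2.26% of 14493 genes were called in either direction. In the other classes 0 of the 9 were called by edgeR. The background there was 0.981% in CD8 T cells, 0.453% in mast cells and basophils, 0.202% in type 2 conventional dendritic cells, 0.163% in plasmacytoid dendritic cells, 0.159% in regulatory T cells, 0.152% in neutrophils, 0.13% in type 1 conventional dendritic cells, 0.0807% in B cells, 0.0576% in monocytes, 0.0483% in NK cells and 0.0175% in conventional CD4 T cells. At an unadjusted p under 0.05, 10 of the 57 pairs passed with edgeR, where 8.86% of all tested pairs of a gene and a class did, and in macrophages 4 of the 9 genes passed, where 15.5% of all genes did. After adjustment DESeq2 called 1 pair higher and 1 lower, where 0.5% and 0.244% of all pairs were called higher and lower.

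Hpgds in macrophages fell by 0.43 on the log2 scale (log2 fold change -0.43 ± 0.08, SE, adjusted p = 0.021, edgeR). Its level was 107 and 108 CPM in the control libraries and 74.99 and 79.4 CPM in the liproxstatin libraries. Both liproxstatin libraries were lower than both controls, and the replicates of a group differed by far less than the groups. The share of macrophages with an Hpgds UMI was 61.7%, 74.3%, 59.1% and 63.5%, and with cells thinned to 2000 UMIs it was 18.2%, 16.6%, 12.1% and 12.7%. Without liproxstatin replicate 1 the change was -0.38 with adjusted p = 0.12 (edgeR), and with classes taken from clusters it was -0.40 with adjusted p = 0.054. The 8 markers of mast cells and basophils, the other class rich in Hpgds, summed to 2.86, 3.45, 1.48 and 3.57 CPM in macrophages. The cells of 2 low-UMI clusters were 2.38% to 16.5% of a library, most in control replicate 1, and without them the change was -0.43.

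The lower Hpgds level was found within the clusters too. Of the 9 phagocyte clusters with at least 10 CPM of Hpgds, 8 had both liproxstatin libraries below both controls, where 22.7% of all such pairs of a gene and a cluster had that order. The 9 clusters come from the same 4 libraries and are not replicates. In the cluster led by Cxcl13, Clec4b1 and H2-Eb1 (3088 cells) Hpgds was 113, 107, 77.9 and 79.0 CPM, and in the cycling cluster led by Cdc20 and Cenpf it was 112, 125, 71.3 and 89.1 CPM. The exception was the cluster led by Mmp12 and Ppbp, at 47.7, 73.9, 52.5 and 57.8 CPM. The clusters also differed in size between libraries: the Cd83 and Il1a cluster was 8.60% and 4.83% of the phagocytes in control and 16.0% and 15.8% in liproxstatin libraries. With 10 macrophage clusters weighted alike in every library, Hpgds was 104, 104, 77.2 and 81.9 CPM, a log2 ratio of -0.39. In the other main holder of the gene, mast cells and basophils, the log2 fold change was 0.46 ± 0.26 (adjusted p = 0.71, edgeR), and the difference between these 2 classes was not tested.

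**Figure D3:**
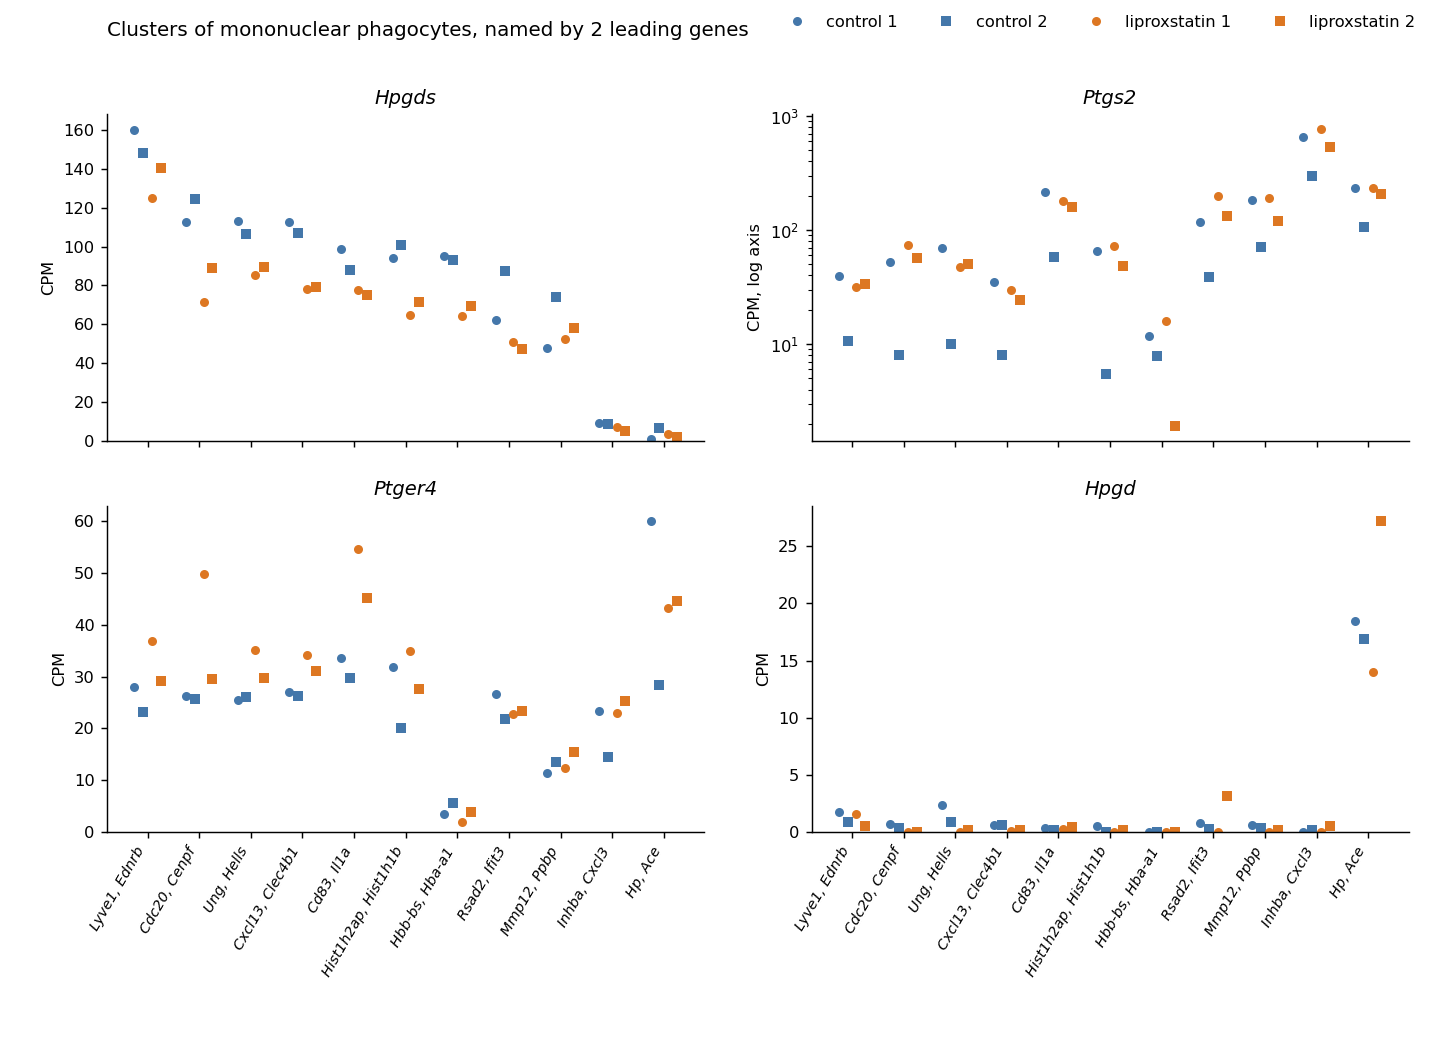
Level in CPM of Hpgds, Ptgs2 (log axis), Ptger4 and Hpgd in 11 clusters of mononuclear phagocytes, named by their leading genes and ordered by the mean Hpgds level, 1 point per library, blue for control and orange for liproxstatin, circles for replicate 1 and squares for replicate 2. Hpgds runs from 144 CPM in the Lyve1 cluster to 3.13 CPM in the Hp and Ace cluster, with liproxstatin below control in most clusters, and control replicate 2 has the lowest Ptgs2 level in most.

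Ptger4 rose in no class by edgeR at the adjusted threshold, but came closest in macrophages. Its macrophage level was 27.4 and 22.9 CPM in control and 37.4 and 31.3 CPM in liproxstatin libraries, which did not overlap, and the log2 fold change was 0.49 ± 0.12 (SE, adjusted p = 0.071, edgeR). DESeq2 called it, at 0.49 with adjusted p = 0.011, and edgeR did so without control replicate 1, at 0.64 with adjusted p = 0.00012, a setting that called 787 macrophage genes in place of 327. Without control replicate 2 the change was 0.35 (adjusted p = 0.15, edgeR) and without liproxstatin replicate 1 it was 0.37 (adjusted p = 0.43). Of 10 phagocyte clusters with at least 10 CPM of Ptger4, 5 had both liproxstatin libraries above both controls, where 17.8% of such pairs had that order. The Cd83 and Il1a cluster had 33.5, 29.7, 54.6 and 45.2 CPM. In plasmacytoid dendritic cells the log2 fold change was 0.56 ± 0.19 (adjusted p = 0.44, edgeR) and in type 1 conventional dendritic cells, with 24.2, 28.8, 45.0 and 40.3 CPM, it was 0.73 ± 0.21 (adjusted p = 0.46, edgeR). Ptger4 in type 2 conventional dendritic cells gave 0.83 ± 0.95, in which control replicate 2 was low at 27.1 CPM and the other 3 libraries lay at 103 to 152 CPM.

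Ptgs2 passed the test in no class. In neutrophils the log2 fold change was -0.22 ± 0.24 (adjusted p = 0.86, edgeR), in monocytes 0.55 ± 0.37 (0.74), in macrophages 0.92 ± 1.10 (0.79) and in type 2 conventional dendritic cells 0.41 ± 1.58 (0.98). Control replicate 2 had the lowest Ptgs2 level in 5 of the 6 classes with at least 10 CPM. Without control replicate 1 the macrophage value was 2.55 (adjusted p = 1.5e-64, edgeR) and the monocyte value 1.07 (adjusted p = 0.046). Without control replicate 2 the macrophage value was 0.15, since the 2 controls differed more from each other (90.9 and 17.7 CPM) than control replicate 1 differed from the liproxstatin libraries. With 1 control left, that library is assumed to vary like the other group. In type 1 conventional dendritic cells the value was 6.97 without control replicate 1 and -2.26 without control replicate 2, both called. The 8 neutrophil markers summed to 67.9, 124, 110 and 83.8 CPM in macrophages, highest in the library with the lowest Ptgs2 level. Control replicate 2 also had the lowest summed level of 11 cyclic AMP-induced genes in 11 of 12 classes (macrophages: 277, 165, 459 and 354 CPM), and of 11 dissociation and immediate early genes in 9 of 12 (macrophages: 3849, 2775, 4852 and 4655 CPM). The part of tissue handling in these Ptgs2 values was not tested.

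The other members gave no call. Ptgs1 in macrophages had a log2 fold change of 0.17 ± 0.32 and Tbxas1 0.12 ± 0.11. Ptger2 in macrophages, where its level was only 4.04 ± 0.95 CPM, had 0.52 ± 0.17 (adjusted p = 0.16, edgeR), and in CD8 T cells 0.36 ± 0.16 (adjusted p = 0.40). In NK cells the Ptger2 level was 5.79, 11.98, 2.81 and 5.61 CPM, with the liproxstatin libraries below both controls, and the log2 fold change was -1.11 ± 0.43 (adjusted p = 0.73, edgeR). Hpgd had 0.74 ± 0.38 in monocytes (adjusted p = 0.63, edgeR) and -1.22 ± 0.37 in macrophages (adjusted p = 0.13), where 89 of 12617 cells held a UMI. Hpgds in neutrophils had -1.60 ± 0.55 (adjusted p = 0.39, edgeR), with 5.61, 21.3, 3.89 and 8.37 CPM from 31 cells, and Ptges3 lay between -0.12 and 0.63 over the 12 classes. In macrophages 7 of the 9 genes had a log2 fold change above 0, with a median of 0.14, beside a median of -0.004 over all genes tested there.

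**Figure D4:**
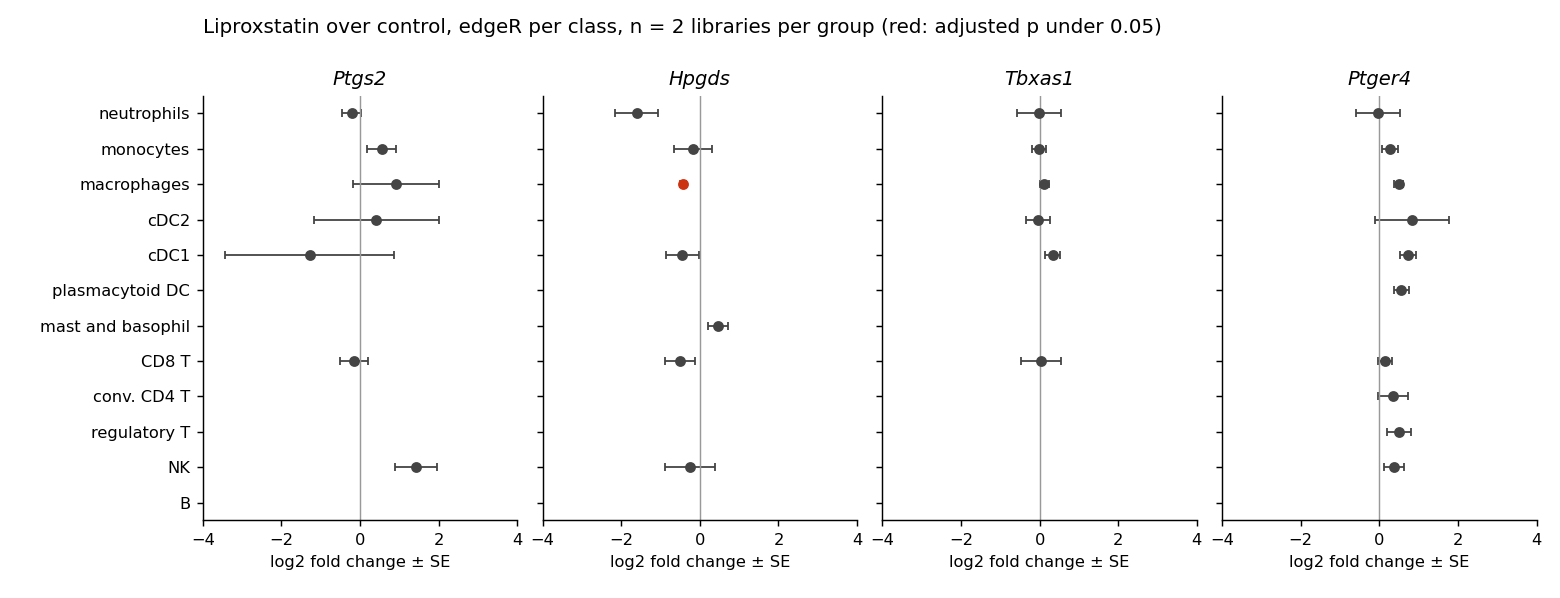
Log2 fold change of liproxstatin over control (horizontal axis) with its SE as bars for Ptgs2, Hpgds, Tbxas1 and Ptger4 in each class where the gene passed the filter, by edgeR with n = 2 libraries per group. Hpgds in macrophages, at -0.43 ± 0.08, is the only red point, and the bars of Ptgs2 are wide in macrophages and in both conventional dendritic cell types.

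The series concerns neutrophils of tumours, so the response of neutrophils was also set against that of the mononuclear phagocytes of the same libraries. Ptgs2 was the only one of the 9 genes called in this test: its response was lower in neutrophils by 1.20 on the log2 scale (-1.20 ± 0.21, SE, adjusted p = 2.7e-05, edgeR interaction term, libraries blocked), where 0.358% of 13692 genes were called. In the pooled mononuclear phagocytes Ptgs2 had a log2 fold change of 0.86 ± 0.88 and in neutrophils -0.22 ± 0.24. Without control replicate 2 the difference was -0.40 (adjusted p = 0.73, edgeR), and it was not called with either liproxstatin library left out (-1.14 and -1.23). With DESeq2 the size was the same, -1.21, but the SE was 0.42 and the adjusted p = 1.00.

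The rest of the pathway, 44 genes in 7 lists, was mostly below the test's reach or without a call. Of the receptors not among the 9 members, Tbxa2r, the thromboxane receptor, had 57.8, 70.2, 73.7 and 61.2 CPM in plasmacytoid dendritic cells, and Ptger3, the inhibitory prostaglandin E2 receptor, had 30.4, 40.8, 21.2 and 32.2 CPM in mast cells and basophils. Pla2g4a, the phospholipase that frees arachidonic acid, was at 57.3 ± 6.56 CPM in monocytes and 50.4 ± 5.31 in macrophages. In 12 classes no gene was called for substrate release (19 pairs tested), other synthases and reductases (35), other inactivation (15), transport (6) or other receptors (8). Among cyclic AMP-induced genes 3 of 99 tested pairs were called higher and 0 lower: Crem in macrophages (0.44 ± 0.09, adjusted p = 0.033, edgeR), Pde4b in CD8 T cells (1.24 ± 0.19, adjusted p = 0.015) and Nr4a2 in mast cells and basophils (2.31 ± 0.39, adjusted p = 0.022). Among dissociation and immediate early genes 6 of 132 were called higher and 0 lower. Fosb (0.87 ± 0.10), Dusp1 (0.92 ± 0.10) and Dnajb1 (0.46 ± 0.09) were called in macrophages and Dusp1 in mast cells and basophils (1.14 ± 0.18). In B cells Hspa1a (4.25 ± 0.58) and Hspa1b (3.82 ± 0.57) were called, near-identical copies whose UMIs may be split. B cells numbered only 20, 37, 21 and 36 in the libraries, and their summed dissociation list was 5272, 2745, 2884 and 3263 CPM. Over all genes, the share called in either direction was 2.26% in macrophages, 0.981% in CD8 T cells, 0.453% in mast cells and basophils and 0.0807% in B cells. In macrophages, where Hpgds fell, the median log2 fold change was 0.94 over the cyclic AMP list and 0.50 over the dissociation list. The part of dissociation in the Hpgds result was not tested.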

How the data were processed

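The authors deposited raw UMI counts for each gene and barcode in a separate matrix for each library, per the file headers. Libraries were made with a 10x droplet kit that reads 3' ends, per the labels' protocols. Counting used Cell Ranger, version 4 with build mm10 per the submitters' processing notes and version 6.1.1 per the matrix headers. No aligner setting is given in the sources used here. Gene positions are from GENCODE M21 on GRCm38.

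Barcodes with fewer than 200 genes, with 15% or more mitochondrial UMIs, or ranked as doublets by Scrublet (3.30% to 7.44% of a library) were left out. Cells were gated on 14 marker lists, with a score margin of 0.1 and at least 3 detected markers. 1639 cells (6.37%) met no gate. Clusters (27) were made by Leiden clustering in scanpy 1.11.5 without the 9 genes, and phagocyte clusters with at least 100 cells are described.

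UMIs were summed per library and class and tested with edgeR 4.0.16 (R 4.3.3), liproxstatin over control, 1 fit per class over all genes passing filterByExpr, with TMM scaling and Benjamini-Hochberg adjustment at 0.05. The SE was taken from the fold change and its F value. The interaction fit kept the library as a block. Alternatives were DESeq2 1.42.0, other filters and gates, each library left out, a replicate block, and 2 added after the data were seen: leaving out low-UMI clusters and a fixed mix of clusters. Scripts were tested on simulated counts with 2-fold changes. Of the changed genes, 78.7% were recovered in macrophages, 29.3% in neutrophils and 2.5% by the interaction term. Of the calls, 16.2%, 11.3% and 16.7% were unchanged genes, so the absence of a call in neutrophils or the interaction says little. All 9 genes in every tested class, every pathway gene called, and the 3 genes most like each member were named. The members and lists were chosen with earlier results of these data known. Free RNA was estimated from C1q genes in lymphocytes, neutrophils, plasmacytoid dendritic cells and mast cells and basophils, and from T cell genes in the other classes, and it is subtracted from no value in the text. Replicate numbers are those of the labels; the file names carry other numbers for all libraries but control replicate 1.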

Additional observations from a re-analysis of the deposited data

Results flagged for a closer look

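Among the 9 members and 44 pathway genes, the response to liproxstatin differed between neutrophils and mononuclear phagocytes in 5, by the interaction term of edgeR with 2 libraries per group. Over all 13692 genes tested, 49 were called, or 0.358%. Calls over all genes became far fewer with either liproxstatin library left out, so a call lost there is not particular to these genes. For Ptgs2 the difference was -1.20 on the log2 scale, as given above with its values without single libraries. The other 4 genes are on the cyclic AMP-induced list. Nr4a2, a nuclear receptor of the immediate early class, differed by -3.08, and it rested on 71 UMIs in neutrophils, with 104, 4.13, 10.2 and 5.58 CPM. Without control replicate 1 it was -1.32 (adjusted p = 0.76, edgeR), and the call was also lost without liproxstatin replicate 1 (-3.36). Its relative Nr4a3 differed by -2.07, a call lost without control replicate 2 (-1.41) and without liproxstatin replicate 1 (-2.003). Thbs1, which encodes thrombospondin, differed by -1.96, with 760, 514, 396 and 163 CPM in neutrophils and 113, 140, 264 and 174 CPM in mononuclear phagocytes. That call was lost without liproxstatin replicate 1 (-2.39) and without liproxstatin replicate 2 (-1.57). Sik1, a kinase induced by cyclic AMP, differed by -0.81, and was not called without control replicate 2 (-0.62), without either liproxstatin library (-0.68 and -0.89) or with DESeq2. DESeq2 called Thbs1 and Nr4a3 and not Nr4a2 or Ptgs2, and called 3 of 13692 genes in all.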

How the results depend on the processing

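Counts of calls depended on the processing, over all genes as well as in the genes followed here. In macrophages 327 of 14493 genes were called in the report, 526 with DESeq2, 463 with the replicate block and 303 with the stricter gate. Without a filter 1052 of 21362 were called, and with classes from clusters 160 of 14453. Counts over all genes also moved with 1 library left out, so the counts below are not particular to these genes. Pairs of a member and a class called higher, 0 in the report, were 1 with DESeq2, 2 without a filter, 1 with the stricter gate, 1 with the replicate block and 0 to 7 with 1 library left out, and pairs called lower, 1 in the report, were 2 without a filter, 0 with classes from clusters and 0 to 3 with 1 library left out. Pathway pairs called higher, 9 in the report, were 17 with DESeq2, 47 without a filter, 28 with the replicate block and 11 to 116 with 1 library left out, and those called lower, 0 in the report, were 5, 0, 3 and 0 to 14 without a filter, with DESeq2, with the replicate block and with 1 library left out. The largest counts of higher calls came without control replicate 1. Labels give replicate numbers, but same-numbered libraries correlated at only -0.05 to 0.19, so the replicate block pairs libraries by number only, and the file names number them differently. The Ptgs2 interaction was not called with DESeq2 (-1.21), the stricter gate (-1.20) or doublet-like cells kept (-1.13), and ranged from -1.82 to -0.40 with 1 library left out. Directions that turned belonged to values not called, apart from Ptgs2 in type 1 conventional dendritic cells (-3.49 to 6.97). Ptges3 in neutrophils was -0.066 with classes from clusters. Tbxas1 in monocytes was 0.002 with the replicate block and under 10% mitochondrial UMIs and 0.37 with classes from clusters, and in type 2 conventional dendritic cells 0.014 without a filter, 0.029 with the stricter gate and 0.30 with classes from clusters. With 1 library left out, the ranges were -0.24 to 0.48 for Ptgs1, -0.034 to 0.157 for Ptges3 and -0.004 to 0.26 for Tbxas1 in macrophages, -0.51 to 0.20 for Ptgs2 and -0.084 to 0.295 for Ptges3 in neutrophils, -0.22 to 0.20 for Tbxas1 and -0.053 to 0.61 for Ptger4 in monocytes, -0.52 to 3.38 for Ptgs2 and -0.51 to 0.33 for Tbxas1 in type 2 conventional dendritic cells, -0.081 to 1.64 for Ptger2 in regulatory T cells, -0.086 to 0.36 for Ptger4 in CD8 T cells and -0.011 to 0.86 for Ptger4 in NK cells. Of all log2 fold changes under an alternative, 293 kept their direction and side of the threshold and 22 turned, 15 of these with 1 library left out. The cause was not tested.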
